A study of Mus musculus with 30 samples.

Results

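A set of 9 genes of mouse pancreatic islets through which glucose, fatty acids and gut hormones act on insulin release was followed across 30 RNA-seq libraries: Slc2a2, G6pc2, Pcx, Abcc8, Kcnj11, Trpm5, Glp1r, Gipr and Ffar1. They were taken by symbol and not by a cut on their values, though with earlier results of these data known. They are 9 of the 54232 gene IDs counted, and all 9 were detected in every library. Islets, the endocrine clusters of the pancreas, came from male wild-type C57BL/6N mice. In vivo, mice had vehicle or 1 mM cadmium chloride for 6 weeks (5 vehicle and 4 cadmium libraries) or 18 weeks (6 vehicle and 5 cadmium libraries). In culture, islets were kept for 96 hours after isolation, 5 libraries with vehicle and 5 with cadmium chloride at 0.5 uM. How cadmium was given, how old the mice were and how many stand behind a library is not stated in the labels used here, so the p-values below measure only the spread between libraries, which may in part be technical.

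In the beta cell, glucose enters through the transporter GLUT2 and is phosphorylated, and its oxidation raises the ratio of ATP to ADP. ATP closes the KATP channel, the membrane depolarizes, calcium enters and insulin granules fuse. The incretin hormones GLP-1 and GIP and long-chain fatty acids act through receptors on the same cell and raise secretion only when glucose is already high. Cadmium, a toxic metal that can take the place of zinc and calcium at their binding sites, is known to accumulate in islets.

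By role, Slc2a2 encodes GLUT2, and G6pc2 encodes the islet glucose-6-phosphatase that turns glucose 6-phosphate back into glucose. Pcx encodes pyruvate carboxylase, which refills the citric acid cycle. Abcc8 (the sulfonylurea receptor SUR1) and Kcnj11 (the pore subunit Kir6.2) together form the KATP channel, and Trpm5 is a cation channel opened by calcium. Glp1r and Gipr are the incretin receptors, and Ffar1 is the long-chain fatty acid receptor GPR40.

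In the mm10 (GRCm38) build, Slc2a2 lies at chr3:28697903-28731359 on the plus strand, G6pc2 at chr2:69211073-69227841 on the plus strand and Pcx at chr19:4510472-4621752 on the plus strand. Abcc8 (chr7:46104523-46180033) and Kcnj11 (chr7:46093953-46100764) are neighbours on the minus strand of chromosome 7, 3758 bases apart. Trpm5 (chr7:143069153-143094642), Gipr (chr7:19156061-19166127) and Ffar1 (chr7:30857390-30861564) are also on the minus strand of chromosome 7, and Glp1r is at chr17:30901817-30940791 on the plus strand. All are protein-coding genes. Trpm5 shares 220 exonic bases with Tssc4 on the opposite strand, and since no label used here states the strand setting of the counting, reads from that stretch cannot be assigned and the Trpm5 values are uncertain to that degree. The exons of the other 8 genes overlap no exon of another gene.

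RefSeq start-site windows of the GRCm38.p6 assembly were found for 6 of the 9 genes (8 windows, since G6pc2 and Pcx each have a pair). The 250 bases before the start are shown for G6pc2 (the internal start, chr2:69219699-69219948, plus strand), Ffar1 (chr7:30861471-30861720, minus strand) and Pcx (chr19:4510222-4510471, plus strand), because G6pc2 and Ffar1 varied most oppositely among the 9 genes and Pcx holds the only match to a metal response motif; capitals mark motif matches on either strand.
G6pc2: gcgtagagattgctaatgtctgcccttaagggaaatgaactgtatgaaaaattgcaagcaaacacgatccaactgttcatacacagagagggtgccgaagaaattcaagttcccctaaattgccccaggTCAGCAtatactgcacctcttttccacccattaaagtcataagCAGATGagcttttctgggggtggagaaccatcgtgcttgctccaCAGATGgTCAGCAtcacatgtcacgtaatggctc
Ffar1: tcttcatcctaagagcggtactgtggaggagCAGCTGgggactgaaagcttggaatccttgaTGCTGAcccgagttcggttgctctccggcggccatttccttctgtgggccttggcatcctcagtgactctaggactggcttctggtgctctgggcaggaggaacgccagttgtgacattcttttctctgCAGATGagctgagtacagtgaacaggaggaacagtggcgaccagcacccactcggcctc
Pcx: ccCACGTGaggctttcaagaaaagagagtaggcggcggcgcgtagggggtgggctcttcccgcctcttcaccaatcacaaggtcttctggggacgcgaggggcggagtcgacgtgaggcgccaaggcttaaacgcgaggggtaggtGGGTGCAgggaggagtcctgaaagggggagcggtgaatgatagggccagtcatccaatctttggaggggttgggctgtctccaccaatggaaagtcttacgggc
In G6pc2 the capitals are CAGATG, the reverse strand of the E-box CATCTG, and TCAGCA, the reverse strand of the MAF site core TGCTGA. The Ffar1 window holds the E-box CAGCTG far from the start, then the MAF site core, and the other E-box nearest the start. The E-box CATCTG and the MAF site core were each found in 2 of the 8 windows, those of G6pc2 and Ffar1, and in 17.2% and 19.5% of all 32851 windows of the same length (these 250 bases and the first 50 after the start). The metal response core TGCACNC was found in 1 of 8 windows, as GGGTGCA in Pcx, against 12.6% of all windows, and the variant TGCGCNC in 0 of 8, against 15.4%. The E-box CAGCTG was found in 4 of 8 windows, against 16.3%. A further E-box, CACGTG, was found in 1 of 8, that of Pcx, against 7.15%. The cAMP response element TGACGTCA was in 0 of 8, against 1.79%. Its shorter core TGACG, part of the full element, was in 1 of 8 (after a start of G6pc2), against 20.8%. The homeobox core TAATTA and the TATA box core, searched as TATAAA, were each in 0 of 8, against 5.29% and 13.6%. These are matches of letters only and were not tested for binding.

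The libraries held 49564350 to 58366797 counts at 6 weeks, 9092759 to 51852364 at 18 weeks and 24197072 to 26549350 in culture, and the 9 genes had 742 to 237480 counts each per library. A list of 20 beta cell reference genes (none of them among the 9), used to check the islet label, was detected in full in every group and held 13.0% to 25.1% of counts. A list of 25 acinar markers, the enzyme-making cells of the surrounding pancreas, held 2.50% to 4.61% of counts in vehicle and 3.43% to 7.61% in cadmium libraries at 6 weeks, and 0.241% to 1.66% against 1.50% to 18.1% at 18 weeks; it held at most 0.0138% in culture, where Amy2a5, Amy2b and Ptf1a were at 0. In bulk RNA, fewer beta cells and less RNA per beta cell cannot be told apart. Vehicle libraries of 6 weeks, 18 weeks and culture also differed in depth, and Gapdh, a gene with many pseudogene copies, was at 5.089 to 9.74 CPM, 122.7 to 184 CPM and 394.5 to 520.1 CPM in them, so that time or culture, batch and depth cannot be told apart in comparisons across those groups.

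Levels are given as library-size-scaled counts (CPM) after TMM scaling of all 30 libraries and, where genes are compared with each other, as RPKM (CPM per kilobase of exon). G6pc2 had the highest level per length of the 9 genes in all 6 groups, Slc2a2 the second, Abcc8 the third and Trpm5 the lowest. In vehicle islets at 6 weeks G6pc2 was at 1809 ± 437 RPKM (SD, n = 5), 14th of 15582 protein-coding genes. Slc2a2 was at 212 ± 44.5 RPKM and Abcc8 at 205 ± 12.2 RPKM in the same libraries, a difference within their spread. The next 5 genes lay close together there: Kcnj11 at 64.0 ± 1.11, Ffar1 at 52.9 ± 5.42, Pcx at 46.1 ± 0.902, Gipr at 43.7 ± 5.87 and Glp1r at 43.6 ± 6.36 RPKM, of which the last 3 did not differ beyond their spread. Trpm5 was at 15.2 ± 4.7 RPKM, 2492nd of the protein-coding genes. The order of these middle 5 genes changed between groups: Glp1r was 8th of the 9 genes in vehicle islets at 6 weeks and 4th at 18 weeks and in culture.

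Across the 6 groups the genes followed different orders of CPM. G6pc2 was highest in the 6-week groups at 3571 ± 863 CPM (SD, n = 5) with vehicle, lower at 18 weeks at 2914 ± 743 CPM (SD, n = 6) and lowest in culture at 1454 ± 70.5 CPM (SD, n = 5), and each group's mean lay within 1 SD of the next in that order except between 18 weeks and culture. Abcc8 and Kcnj11 shared another order, with the 6-week groups highest, the culture groups between and the 18-week groups lowest; Kcnj11 was at 235 ± 4.07 CPM (SD, n = 5), 176 ± 7.68 CPM (SD, n = 5) and 137 ± 16.0 CPM (SD, n = 6) with vehicle. Ffar1 was as high in culture (221 ± 5.45 CPM (SD, n = 5)) as at 6 weeks (221 ± 22.6 CPM (SD, n = 5)) and lower in both 18-week groups. Pcx was highest in the 6-week groups, and its 4 other group means, 151 to 178 CPM, followed with neighbours within their spread. Slc2a2 had means of 1223 to 1334 CPM in the 4 in vivo groups, within their spread, and of 1007 and 935 CPM in culture. Glp1r had means of 312 and 307 CPM in culture and of 254 to 277 CPM in vivo; the step between cadmium culture and cadmium at 6 weeks, 307 ± 17.2 CPM (SD, n = 5) and 277 ± 20.8 CPM (SD, n = 4), was larger than either SD, and the other neighbours lay within theirs. Gipr (122 to 164 CPM) and Trpm5 (97.1 to 149 CPM) had no neighbours in their order that differed beyond the larger SD of the pair.

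**Figure D1:**
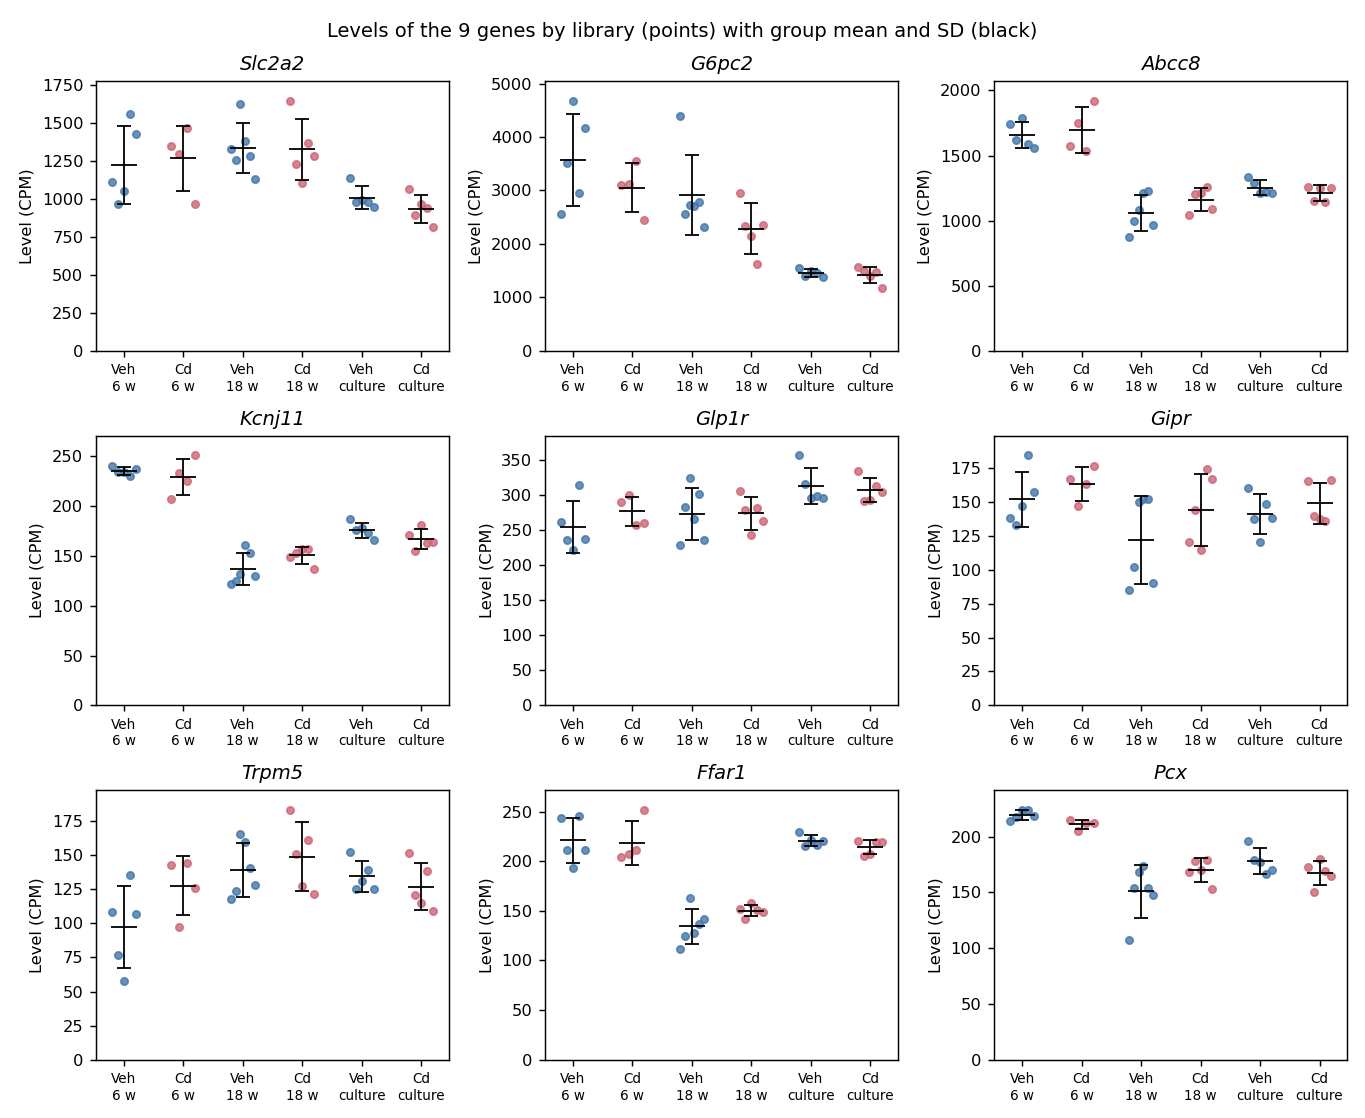
Level of each of the 9 genes in CPM (vertical axes, from 0) in each library (points; blue vehicle, red cadmium), with the group mean and SD in black, for 6 weeks and 18 weeks in vivo and 96 hours in culture. Within each setting the blue and red points overlap for every gene, whereas G6pc2 is lower in culture, where its 10 libraries sit at 1177 to 1576 CPM, than in vivo.

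Cadmium was not followed by a called change in any of the 9 genes, at 6 weeks, at 18 weeks or in culture. In each of the 3 comparisons 0 of 9 genes passed edgeR's quasi-likelihood test at an adjusted p under 0.05, 0 had an unadjusted p under 0.05, and DESeq2 called 0. Over all genes 5.11%, 18.2% and 5.49% had an unadjusted p under 0.05 at 6 weeks, at 18 weeks and in culture. Over all genes tested the share called was 0% at 6 weeks, 0.359% at 18 weeks (75 of 20911 genes, and 0 to 318 genes with single libraries left out) and 0.00597% in culture (1 of 16743 genes), so a count of 0 among the 9 does not set them apart. With the replicate number as a block, the counts over all genes were 0, 1 and 223 in these comparisons. The block left 0 of the 9 genes called in each. The 95% intervals of the log2 fold changes reached from −0.60 to 0.86 at 6 weeks and from −0.73 to 0.62 at 18 weeks, and in culture stayed between −0.25 and 0.24 for all 9 genes.

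**Figure D2:**
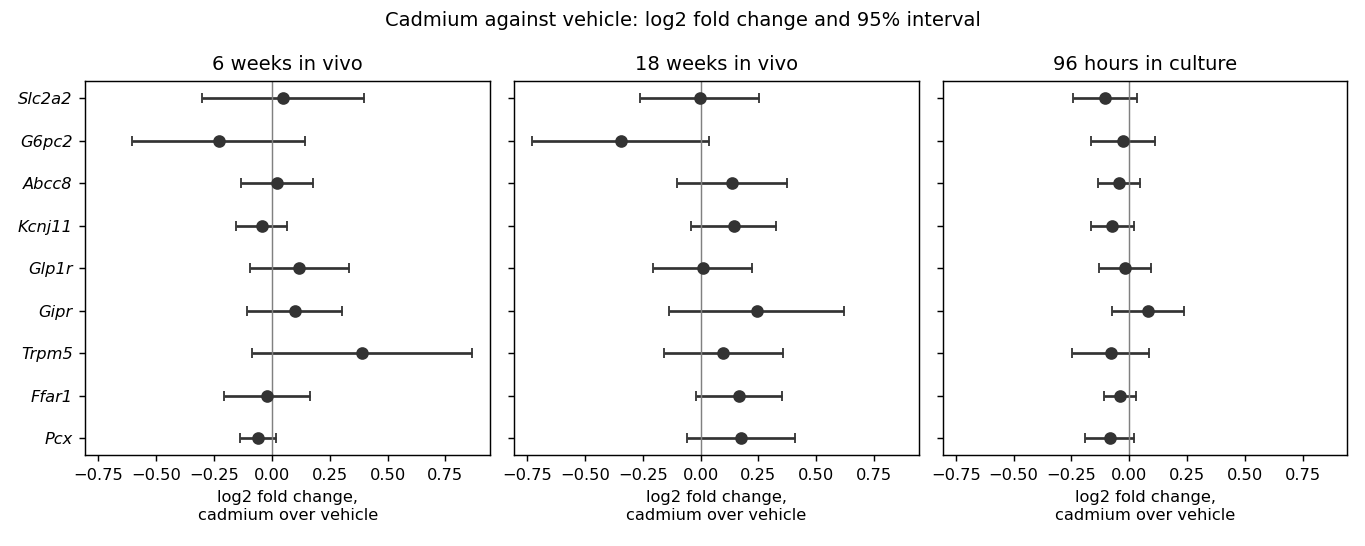
Log2 fold change of cadmium over vehicle (horizontal axes) with its 95% interval for the 9 genes (rows) at 6 weeks, 18 weeks and in culture. Every interval includes 0, the widest is that of Trpm5 at 6 weeks, and all 9 culture intervals stay between −0.25 and 0.24.

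Of Slc2a2, G6pc2 and Pcx, the genes of glucose entry and metabolism among the 9, G6pc2 had the lowest fold change at both times in vivo. At 6 weeks G6pc2 was at 2560, 2949, 3505, 4166 and 4673 CPM in the vehicle libraries. The cadmium libraries had G6pc2 at 2446, 3104, 3125 and 3544 CPM, and 1 of the 4 lay below all vehicle libraries. The log2 fold change was −0.23 ± 0.17 (SE; edgeR adjusted p = 0.919). At 18 weeks G6pc2 ranged over 2325 to 4392 with a median of 2721 CPM in 6 vehicle libraries. In 5 cadmium libraries it was at 1623, 2156, 2334, 2357 and 2943 CPM, of which 2 lay below all vehicle libraries and the rest overlapped them. The log2 fold change was −0.35 ± 0.18 (unadjusted p = 0.0715, edgeR adjusted p = 0.314). A single library, vehicle replicate 1 at 4392 CPM, stood above the other 5 vehicle libraries, and without it the value was −0.20. With the acinar share as a covariate it was 0.051 (edgeR adjusted p = 0.998). That share was 0.241% to 1.66% with vehicle and 1.50% to 18.1% with cadmium, so this fit cannot separate it from cadmium. In culture the vehicle libraries had G6pc2 at 1378, 1398, 1451, 1488 and 1553 CPM and the cadmium libraries at 1177, 1398, 1475, 1489 and 1576 CPM, with a log2 fold change of −0.026 ± 0.065 and an interval of −0.16 to 0.11.

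Slc2a2, the transporter gene, had log2 fold changes close to 0 in both in vivo comparisons. At 6 weeks it was at 967, 1050, 1110, 1427 and 1560 CPM with vehicle and 966, 1293, 1349 and 1465 CPM with cadmium, and the groups overlapped almost fully (log2 fold change 0.047 ± 0.16, interval −0.30 to 0.40). With the acinar share as a covariate it was 0.37 ± 0.16 (SE; edgeR adjusted p = 0.728); all 25 acinar markers had values above 0 with cadmium at 6 weeks, 0 of them called by edgeR and 2 by DESeq2, and 22 with an unadjusted p under 0.05. At 18 weeks means were 1334 ± 167 CPM (SD, n = 6) with vehicle and 1326 ± 201 CPM (SD, n = 5) with cadmium, and the interval of the log2 fold change was −0.26 to 0.25. In culture Slc2a2 was at 949, 977, 979, 992 and 1139 CPM with vehicle and 816, 891, 937, 964 and 1066 CPM with cadmium. There 3 of 5 cadmium libraries lay below all vehicle libraries, and the log2 fold change of −0.10 ± 0.065 did not pass (edgeR adjusted p = 0.904).

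Pcx, the pyruvate carboxylase gene, varied little at 6 weeks. It was at 214, 217, 218, 223 and 224 CPM with vehicle and 205, 212, 212 and 215 CPM with cadmium, 3 of 4 cadmium libraries lying below all vehicle libraries by a small margin (log2 fold change −0.061 ± 0.035, edgeR adjusted p = 0.919). At 18 weeks the vehicle libraries ranged over 107 to 173 with a median of 154 CPM and the cadmium libraries were at 153, 168, 170.4, 178 and 179 CPM. The sign was opposite to that at 6 weeks, at 0.18 ± 0.11 (edgeR adjusted p = 0.391), and it was 0.090 without vehicle replicate 1, whose level was the lowest. In culture the value was −0.083 ± 0.049 (interval −0.19 to 0.022).

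The genes of the KATP channel subunits had small differences from vehicle, and neither was called. At 6 weeks Abcc8 was at 1561, 1586, 1623, 1740 and 1786 CPM with vehicle and 1536, 1574, 1750 and 1919 CPM with cadmium, and the groups overlapped (log2 fold change 0.024 ± 0.070). Kcnj11 was at 230.2, 234, 234, 238 and 241 CPM and 208, 226, 233 and 251 CPM in the same libraries, where the cadmium libraries spread to both sides of the tightly grouped vehicle libraries (log2 fold change −0.044 ± 0.050). At 18 weeks both genes had similar positive values, 0.14 ± 0.11 for Abcc8 and 0.14 ± 0.086 for Kcnj11 (edgeR adjusted p = 0.516 and 0.381), with cadmium levels of 1043, 1090, 1202, 1212 and 1262 CPM and 137, 149, 153, 157 and 157 CPM. Vehicle libraries ranged over 872 to 1224 with a median of 1040.5 CPM for Abcc8 and 122 to 161 with a median of 131 CPM for Kcnj11, so the groups overlapped for both. In culture the values were −0.046 ± 0.043 and −0.073 ± 0.043, and the intervals reached no lower than −0.17.

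Trpm5, the calcium-activated cation channel gene, had the highest fold change of the 9 genes at 6 weeks and the widest interval. The vehicle libraries were at 58.0, 77.1, 107, 108 and 136 CPM, a spread of more than 2-fold. The cadmium libraries were at 97.4, 126, 143 and 144 CPM, 2 of 4 above all vehicle libraries. The log2 fold change was 0.39 ± 0.22 (interval −0.086 to 0.86, edgeR adjusted p = 0.919). Trpm5 is also used by tuft cells, chemosensory cells of the gut and pancreatic ducts, and 5 other markers of these cells summed to 0.00107% to 0.00184% of counts with vehicle and 0.00124% to 0.00191% with cadmium at 6 weeks; their part in the result was not tested. At 18 weeks Trpm5 was at 118 to 166 with a median of 135 CPM with vehicle and 122, 127, 151, 161 and 183 CPM with cadmium (log2 fold change 0.10 ± 0.12), and in culture the value was −0.080 ± 0.079 with 3 of 5 cadmium libraries below all vehicle libraries.

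The receptor genes also had small differences from vehicle, and none was called. At 6 weeks Glp1r was at 221, 235, 236, 261 and 314 CPM with vehicle and 257, 260.4, 289.5 and 299 CPM with cadmium, every cadmium library lying within the vehicle range (log2 fold change 0.12 ± 0.10). The value at 18 weeks was 0.0090 ± 0.10 with an interval of −0.20 to 0.22, and in culture it was −0.019 ± 0.053 with an interval of −0.13 to 0.093. Gipr, the GIP receptor gene, fell into separate levels at 18 weeks: 3 vehicle libraries were at 85.1 to 102.5 CPM and the other 3 at 150.3 to 152.5 CPM. The 5 cadmium libraries had Gipr at 115, 121, 144, 167 and 175 CPM, of which 2 lay above all vehicle libraries, and the log2 fold change was 0.24 ± 0.18 (interval −0.14 to 0.62, edgeR adjusted p = 0.462). At 6 weeks and in culture Gipr was at 0.10 ± 0.093 and 0.082 ± 0.073.

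Ffar1, the fatty acid receptor gene, was at 142, 149, 151, 152 and 158 CPM in the 18-week cadmium libraries, a narrow range that lay within the vehicle range of 112 to 163 with a median of 132 CPM. Its log2 fold change was 0.17 ± 0.088 (unadjusted p = 0.0786, edgeR adjusted p = 0.325). At 6 weeks Ffar1 was at 193, 211, 212, 244 and 246 CPM with vehicle and 205, 208, 211 and 252 CPM with cadmium, 1 cadmium library standing above the rest (log2 fold change −0.022 ± 0.085). In culture the value was −0.039 ± 0.032, with the narrowest interval of the 9 genes there, −0.11 to 0.029.

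Seen together at 18 weeks, 7 of 9 log2 fold changes were above 0 and their median was 0.14, against a median of 0.00029 and 50% above 0 over all 20911 genes. The size of this shift depended on the scaling: relative to the beta cell reference genes 5 of 9 were above 0 with a median of 0.0047 (−0.14 over all genes), and relative to the reference without the hormone genes Ins1, Ins2 and Iapp 8 of 9 were above 0 with a median of 0.21 (0.068 over all genes). These scalings also differ in method, the first using summed counts and the second a geometric mean. A single library, vehicle replicate 1, was the lowest of its group for 7 of the 9 genes. Without that library 6 of 9 were above 0 with a median of 0.082. In culture 8 of 9 values were below 0 with a median of −0.046, against −0.0021 over all genes. Replicate 1 of culture was the highest of its group for all 9 genes with vehicle and for 6 of the 9 with cadmium. With the replicate number as a block 1 of 9 values was above 0, with a median of −0.046. Without vehicle replicate 1 alone 7 of 9 values were below 0 with a median of −0.025. Relative to the beta cell reference 8 of 9 were above 0, the median of all genes moving to 0.11. Without the hormone genes in the reference 3 of 9 were above 0, with a median of −0.0082 (0.035 over all genes). At 6 weeks 5 of 9 were above 0 with a median of 0.024, against −0.0019 over all genes, and with the acinar share as a covariate 4 of 9 were, from −0.15 to 0.60, with 0 called. The acinar marker list rose with cadmium at 18 weeks (20 of 25 genes called by edgeR, 0 lower, median log2 fold change 3.43), although no gene at all was called without vehicle replicate 1, 3, 4, 5 or 6 or cadmium replicate 3. All 9 ductal markers (1 called, median 1.44) and all 7 stellate cell and fibroblast markers (0 called by edgeR or DESeq2, 6 with an unadjusted p under 0.05, median 1.43) also had values above 0. The part of the stellate, ductal and acinar markers in the 18-week values of the 9 genes was not tested. With the acinar share as a covariate 9 of 9 were above 0 and 0 were called. The acinar share hardly overlapped between vehicle and cadmium libraries there, so that fit cannot separate it from cadmium.

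The differences between the cadmium effects were tested in 1 model of all 30 libraries. Between 18 and 6 weeks 0 of 9 genes were called by edgeR (0 with an unadjusted p under 0.05, 0 by DESeq2), where 1.68% of 22721 genes were, and 21.3% had an unadjusted p under 0.05. That background of 382 genes was 0 to 1694 with single libraries left out and 1 relative to the beta cell reference genes. Between culture and 6 weeks 0 of 9 were called, where 0% of genes were, and DESeq2 called 0; Trpm5 alone had an unadjusted p under 0.05, at −0.48 ± 0.23 (unadjusted p = 0.0437, edgeR adjusted p = 1). Between culture and 18 weeks 0 of 9 were called by edgeR or DESeq2, where 0.0176% of genes were called by edgeR (4 genes, and 0 to 358 with single libraries left out) and 13.2% had an unadjusted p under 0.05. Kcnj11 at −0.22 ± 0.091 and Pcx at −0.26 ± 0.11 had unadjusted p = 0.0232 and 0.0246 there (edgeR adjusted p = 0.304 and 0.308). The largest positive difference was that of G6pc2, 0.32 ± 0.22 (edgeR adjusted p = 0.548), which was 0.17 without vehicle replicate 1 of 18 weeks. These 3 tests share libraries with the cadmium comparisons and with each other.

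Ratios of paired genes within a library, which need no scaling between libraries, were added after the levels had been seen. Abcc8 over Kcnj11 was between 3.20 and 3.52 as a mean of RPKM ratios in the 6 groups, with SDs of 0.0899 to 0.192, although both genes differed in level between groups. Glp1r over Gipr was 1.00 ± 0.103 in vehicle islets at 6 weeks, 1.39 ± 0.252 at 18 weeks and 1.33 ± 0.0968 in culture (SD, n = 5, 6 and 5). The ratio of Glp1r to Gipr was 1.17 ± 0.236 with cadmium at 18 weeks (n = 5), with 2 of 5 cadmium libraries below all vehicle libraries, a difference of −0.25 on the log2 scale (two-sided exact permutation test, p = 0.156, adjusted p = 0.508 over the 6 ratio tests). None of the 6 tests of cadmium against vehicle passed; the other 5 had exact permutation p of 0.214 to 0.926.

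**Figure D3:**
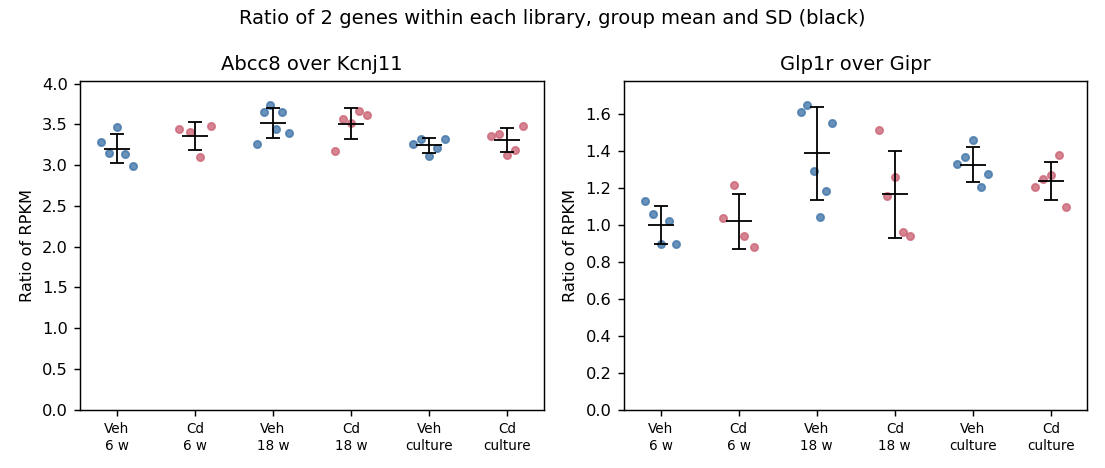
Ratio of the RPKM of 2 genes (vertical axes, from 0) in each library (points; blue vehicle, red cadmium), with the group mean and SD in black. Abcc8 over Kcnj11 stays between 2.985 and 3.732 in all 30 libraries, and Glp1r over Gipr is lowest among the vehicle groups at 6 weeks.

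Lists of the wider pathway, which do not hold the 9 genes, also had 0 genes called by edgeR in each cadmium comparison. Of 39 genes of glucose uptake, metabolism and anaplerosis, 2 had an unadjusted p under 0.05 at 6 weeks, 9 at 18 weeks and 1 in culture, to be read beside the 5.11%, 18.2% and 5.49% of all genes. The counts were 2, 8 and 2 of 31 channel genes, and 4, 13 and 1 of 50 receptor and second messenger genes; DESeq2 called 1 gene of each list at 18 weeks and 0 elsewhere. In the metabolic list the lowest p at 18 weeks belonged to Slc25a10, the mitochondrial dicarboxylate carrier gene, at 0.53 ± 0.16 (edgeR adjusted p = 0.143). Among the channels it was Kcnq1, a voltage-gated potassium channel gene also used in exocrine cells, at 1.26 ± 0.29 (edgeR adjusted p = 0.0831). Among the receptors and messengers it was Arrb1, the beta-arrestin 1 gene, at 0.73 ± 0.22 (edgeR adjusted p = 0.143). At 6 weeks the genes of lowest p were Me3 (−0.41 ± 0.14), Cacna2d1 (0.14 ± 0.047) and Prkca (0.14 ± 0.041), and in culture Slc25a11 (−0.091 ± 0.043), Scn9a (0.12 ± 0.055) and Itpr1 (−0.12 ± 0.031), with edgeR adjusted p of 0.888 to 0.919 in these 6 cases. Median log2 fold changes of the 3 lists at 18 weeks were 0.086, −0.017 and 0.026. In the test of 18 against 6 weeks, Gpd1 of the metabolic list had a higher cadmium effect at 18 weeks (0.49 ± 0.13, edgeR adjusted p = 0.0497), and Cacna2d1 (−0.37 ± 0.080) and Atp2b1 (−0.28 ± 0.072) of the channel list a lower one (edgeR adjusted p = 0.0326 and 0.0428). These calls were lost, with every other call of that test, without vehicle replicate 2 or 3 or cadmium replicate 3 of 6 weeks or cadmium replicate 4 of 18 weeks.

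By the number of genes called, the vehicle groups differed from each other far more than cadmium and vehicle did. Between 6 and 18 weeks both KATP subunit genes, Ffar1 and Pcx were lower and Trpm5 was higher at 18 weeks under TMM scaling over all genes, although relative to beta cell reference genes Abcc8 and Pcx had values above 0. edgeR called 5 of the 9 genes, 4 lower and 1 higher, where 71.8% of all 20551 genes were called, so the share among the 9 (55.6%) was not above the background. Kcnj11 was at 230.2, 234, 234, 238 and 241 CPM at 6 weeks and 122 to 161 with a median of 131 CPM at 18 weeks, with no overlap, and fell by 0.82 ± 0.079 (log2; edgeR adjusted p = 2.88e-07). Ffar1 was at 193, 211, 212, 244 and 246 CPM and then at 112 to 163 with a median of 132 CPM, also without overlap, and fell by 0.75 ± 0.10 (edgeR adjusted p = 4.84e-06). Abcc8 had means of 1659 ± 98.7 CPM (SD, n = 5) at 6 weeks and 1059 ± 141 CPM (SD, n = 6) at 18 weeks and fell by 0.68 ± 0.10 (edgeR adjusted p = 1.68e-05). Pcx had means of 219 ± 4.29 CPM (SD, n = 5) and 151 ± 23.6 CPM (SD, n = 6) and fell by 0.57 ± 0.10 (edgeR adjusted p = 1.41e-04), and the groups did not overlap for these 2 genes either. The share of all genes without overlap is not given here, so with 71.8% of them called this does not set the 4 genes apart. Markers of other cells differed between the same libraries: edgeR called lower all 25 acinar (median log2 fold change −2.06), all 7 macrophage (−1.70), all 7 stellate cell and fibroblast (−2.15), 8 of 9 ductal (−1.75) and 4 of 6 endothelial markers (−0.64), and called higher 3 of 4 erythroid markers (1.74). It also called lower 4 of 7 alpha cell (−0.46), 4 of 6 delta and PP cell (−0.65) and 3 of 4 measured lymphocyte markers (−1.43), and 0 of these higher. With the acinar share as a covariate these 4 genes were again called lower (−1.10 for Kcnj11, −0.92 for Abcc8, −0.78 for Ffar1 and −0.70 for Pcx). The acinar share did not overlap between the vehicle libraries of 6 and 18 weeks, so that fit cannot separate it from time. The part of all these markers in the result was not tested.

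Trpm5 was at 58.0, 77.1, 107, 108 and 136 CPM at 6 weeks and 118 to 166 with a median of 135 CPM at 18 weeks, where 3 of 6 libraries lay above all of the earlier ones, and rose by 0.48 ± 0.17 (edgeR adjusted p = 0.0206). With the acinar share as a covariate it was at 0.063 (edgeR adjusted p = 0.898). As that share did not overlap between these groups, the covariate fit cannot separate it from time, here or for Gipr below. The 5 other tuft markers summed to 0.00107% to 0.00184% of counts at 6 weeks and 0.000429% to 0.000733% at 18 weeks, lower where Trpm5 was higher. G6pc2 (−0.33 ± 0.17, edgeR adjusted p = 0.0949) and Gipr (−0.35 ± 0.16, edgeR adjusted p = 0.0589) did not pass. Without vehicle replicate 1 of 18 weeks G6pc2 was at −0.45 (edgeR adjusted p = 0.0117), and without vehicle replicate 1 of 6 weeks at −0.43 (edgeR adjusted p = 0.0369). Gipr was at −0.41 and −0.39 without vehicle replicate 4 or 5 of 18 weeks (edgeR adjusted p = 0.0340 and 0.0377), and at −0.94 with the acinar share as a covariate (edgeR adjusted p = 0.0157). Slc2a2 and Glp1r were at 0.088 ± 0.13 and 0.069 ± 0.11, and their groups overlapped.

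The directions between vehicle groups were relative to the other genes chosen for scaling. Relative to the 20 beta cell reference genes, themselves lower at 18 weeks for 11 and higher for 3 of 20 under TMM, the median of all genes moved from 0.00027 to 0.69 on the log2 scale and the higher share of calls over all genes from 50% to 87.4%. Slc2a2 (0.78) and Glp1r (0.77) were then called higher along with Trpm5 (1.17), while Kcnj11 (−0.14), Ffar1 (−0.065), Abcc8 (0.00072) and Pcx (0.12) were no longer called. Without the hormone genes in the reference (17 genes), the median of all genes was 0.45, 77.7% of calls were higher, and Kcnj11 (−0.37) and Ffar1 (−0.31) were called lower and Slc2a2, Glp1r and Trpm5 higher. The 20-gene scaling used summed counts, in which the most abundant genes weigh most, and the 17-gene scaling a geometric mean. The scalings therefore differ in method as well as in the hormone genes.

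**Figure D4:**
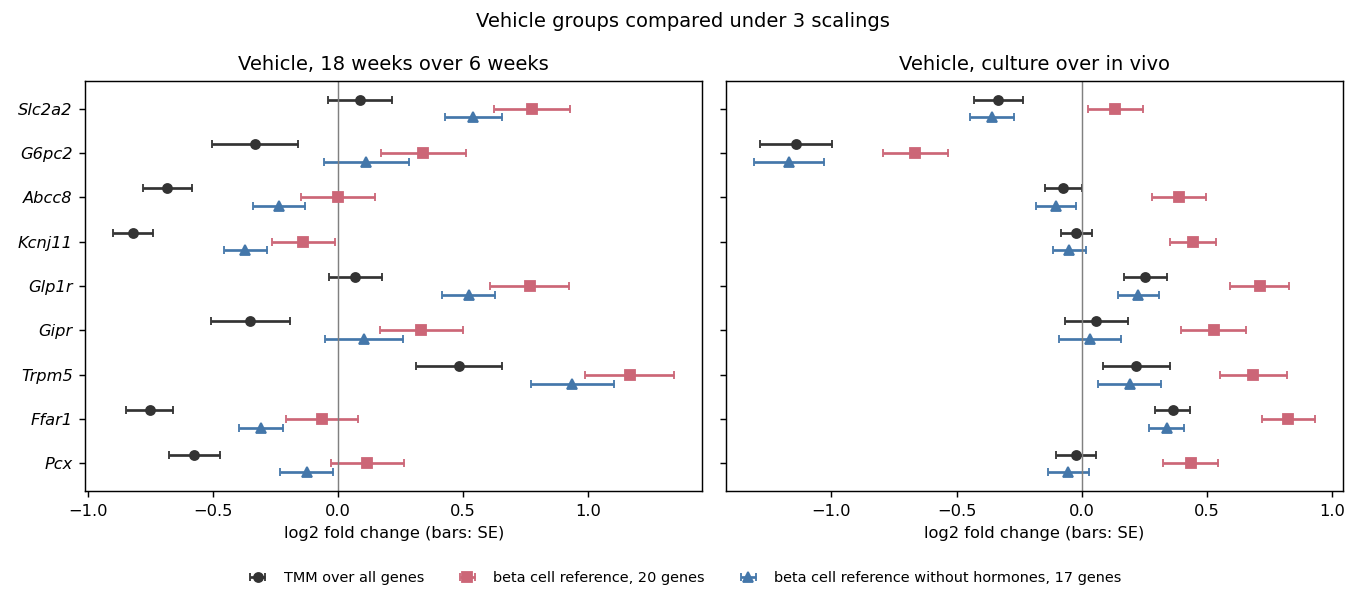
Log2 fold change with its SE (horizontal axes) for the 9 genes (rows), vehicle 18 weeks over 6 weeks on the left and vehicle culture over in vivo on the right, under TMM scaling (black circles), scaling to 20 beta cell reference genes (red squares) and to 17 of them without hormones (blue triangles). The change of scaling moves all 9 genes together, so that Abcc8 at 18 weeks goes from −0.68 to 0.00072, while the order of the genes is nearly the same. The 20-gene scaling uses summed counts and the 17-gene scaling a geometric mean.

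Vehicle islets in culture were compared with the mean of the 6-week and 18-week vehicle islets. G6pc2 was the gene that differed most of the 9: it was at 1378, 1398, 1451, 1488 and 1553 CPM in culture, below all 11 in vivo libraries, which ranged over 2325 to 4673 CPM, and fell by 1.14 ± 0.14 (edgeR adjusted p = 1.62e-06). It was lower under every scaling (−0.67 relative to the 20 beta cell reference genes). The share of all genes whose culture libraries lay outside the in vivo range is not given here. Slc2a2 fell by 0.33 ± 0.10 (edgeR adjusted p = 0.00724), with levels of 949, 977, 979, 992 and 1139 CPM against 967 to 1627 CPM in vivo, but was at 0.13 relative to the 20 reference genes. Ffar1 rose by 0.36 ± 0.070 (edgeR adjusted p = 2.09e-04) against the mean of both times; its culture level, 221 ± 5.45 CPM (SD, n = 5), was close to that at 6 weeks, 221 ± 22.6 CPM (SD, n = 5), and above that at 18 weeks, 134 ± 17.5 CPM (SD, n = 6). Glp1r rose by 0.25 ± 0.085 (edgeR adjusted p = 0.0159), and was no longer called without culture vehicle replicate 1 (0.21, edgeR adjusted p = 0.0624).

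These 4 of 9 genes compare with 58.5% of 20735 genes called, so again the 9 genes were not called more often than others. Abcc8 (−0.073 ± 0.074), Kcnj11 (−0.021 ± 0.061), Pcx (−0.024 ± 0.080), Gipr (0.059 ± 0.13) and Trpm5 (0.22 ± 0.13) did not pass. For Abcc8, Kcnj11 and Pcx the culture levels lay between those of the 2 in vivo times. Without vehicle replicate 4 of 6 weeks Trpm5 was at 0.29 (edgeR adjusted p = 0.0399). Relative to the 20 beta cell reference genes the median of all genes was 0.44 in place of −0.018, 82.8% in place of 48.9% of calls were higher, and 8 of 9 genes were called, with Abcc8 at 0.39, Kcnj11 at 0.44 and Pcx at 0.44; with the hormone genes out of the reference, 4 were called and the median of all genes was −0.045. The acinar share did not overlap between culture and in vivo, nor between the vehicle libraries of 6 and 18 weeks, and with it as a covariate in culture against in vivo 0 of 9 genes were called (360 of all genes), G6pc2 being at −1.34 (edgeR adjusted p = 0.523).

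Under the same TMM scaling, 69.2% of the metabolic, 80.6% of the channel and 76% of the receptor and messenger genes were called at 18 against 6 weeks, beside 71.8% of all genes. In culture against in vivo the shares were 71.8%, 64.5% and 68%, beside 58.5%. At 18 against 6 weeks 27 of 39 metabolic genes were called (8 higher, 19 lower), led by Pgk1, a glycolytic kinase gene that also has pseudogene copies (3.84 ± 0.087, 3.91 to 57.4 CPM), Gapdh and Pdhb, a pyruvate dehydrogenase subunit gene (0.80 ± 0.054). Of 31 channel genes 5 were higher and 20 lower, led by Slc8a1, the sodium-calcium exchanger gene (1.50 ± 0.076), Cacnb3 (−1.08 ± 0.068) and Kcnk3 (−1.99 ± 0.15). Of 50 receptor and messenger genes 9 were higher and 29 lower, led by Crtc2, a coactivator gene of the cAMP response (−2.27 ± 0.082), and the G protein subunit genes Gnao1 (−1.62 ± 0.086) and Gnai2 (−1.30 ± 0.089). In culture against in vivo 23 metabolic genes were higher and 5 lower (median log2 fold change 0.35), led by Gapdh, Pgk1 and Got1, an aspartate aminotransferase gene (0.77 ± 0.048). Of the channel genes 12 were higher and 8 lower, led by Slc8a1 (−1.04 ± 0.058), Kcnk16 (−0.57 ± 0.056) and Scn9a (−0.60 ± 0.059). Of the receptor and messenger genes 10 were higher and 24 lower, led by Gnai2 (1.134 ± 0.066), Crtc2 (0.98 ± 0.062) and the somatostatin receptor gene Sstr3 (−0.93 ± 0.080). All these genes had edgeR adjusted p under the threshold of 0.05, and both comparisons share the in vivo vehicle libraries, as do the cadmium comparisons.

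Within groups, the 9 genes did not vary as one. Deviations of each library's log2 level from its group mean were correlated over all 30 libraries, as a description, since the libraries share scaling, depth and tissue makeup. The median Pearson r of the 36 pairs was 0.33, and 26 were above 0. The KATP subunit genes Abcc8 and Kcnj11 had the highest r, 0.82, followed by Slc2a2 and Trpm5 at 0.68, and by Abcc8 and Pcx at 0.64. Glp1r had an r of 0.63 with both Slc2a2 and Trpm5, and 0.56 with Gipr. For G6pc2 r was below 0 with 7 of the other 8 genes, lowest with Ffar1 at −0.61, then Abcc8 at −0.45 and Pcx at −0.41, and above 0 only with Slc2a2, at 0.29. Vehicle replicate 1 of 18 weeks was highest for G6pc2 and lowest for 7 of the other genes. Without it, over 29 libraries, the r of G6pc2 was −0.48 with Ffar1, −0.27 with Abcc8 and 0.040 with Pcx, that of Abcc8 and Kcnj11 was 0.79, and the median of the 36 pairs was 0.26 with 27 above 0.

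**Figure D5:**
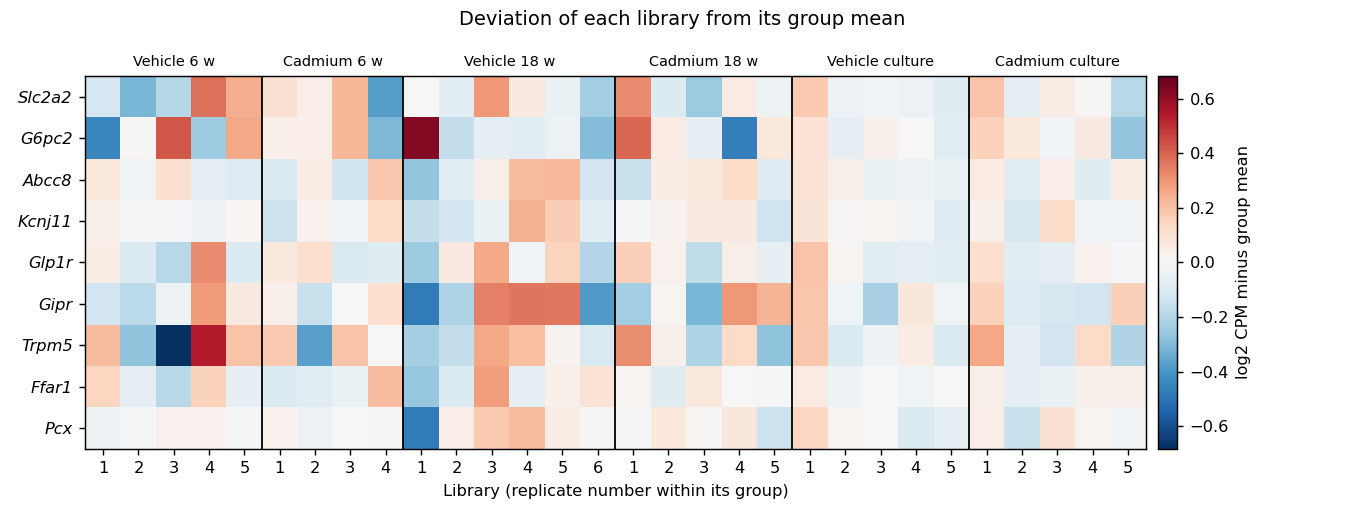
Log2 CPM of each of the 9 genes (rows) in each of the 30 libraries (columns, by group and replicate number) minus its group mean, red above and blue below. The column of vehicle replicate 1 at 18 weeks is red for G6pc2 and blue or near 0 for the other 8 genes, and the column of vehicle replicate 1 in culture is red for all 9.

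By the same measure, over 13127 protein-coding genes with a mean of at least 1 CPM, the gene most like G6pc2 was Spc25 (r = 0.92), a kinetochore gene that lies 4878 bases from it on the opposite strand (chr2:69193895-69206194), followed by Eif3m (0.89). Most like Abcc8 were Cpsf1 (0.95) and Faah (0.94), and most like Kcnj11 were Btbd2 (0.86) and Nacc1 (0.85). Gipr was most like Kif12 (0.95) and Wdr13 (0.92), and Glp1r most like Vwa5b1 (0.82) and Dcaf7 (0.82). Slc2a2 was most like Ufc1 and Tmem215 (both 0.86), Pcx most like Itpr2 (0.91) and Napa (0.87). Trpm5 was most like Rab37 (0.84) and Atp7a (0.78), and Ffar1 most like Epb41l3 (0.85) and Lasp1 (0.77).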

How the data were processed

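RNA-seq gene counts of 30 islet libraries were used as deposited, 1 table of Ensembl gene IDs and raw counts per library; the submitters' processing notes name mm10, cutadapt 1.13, STAR, HTSeq 0.6.1p1 and DESeq2, without their settings. Per the labels' protocols, islets were cleaned on a Biocoll gradient and total RNA was prepared with Trizol. The strand setting and annotation used by the authors are not stated there. Of 54232 IDs, 54165 (99.88%) were matched to symbols.

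Fits of single comparisons held only the groups compared and used edgeR 4.0.16 (filterByExpr with a minimum count of 10 and total of 15, TMM scaling, quasi-likelihood test, Benjamini-Hochberg adjustment over all genes, threshold 0.05; R 4.3.3). Differences between cadmium effects came from 1 fit of 30 libraries. CPM levels use TMM factors over 22721 genes, and RPKM divides by the union of annotated exons (GENCODE vM21). Alternatives were DESeq2 1.42.0, other scalings, filters, covariates, the replicate block and leaving out each library. The fits were tested on simulated data. Among 61 pairs of libraries within groups none agreed within sampling noise (lowest chi-square per degree of freedom 2.77).

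The 9 genes, the gene lists and the tests were chosen with earlier results of these data known. All 9 are named in every comparison, then the 3 called genes of lowest p of each list (the 1 of lowest p where none was called), and the 2 genes most like each of the 9. Results for 1 further gene are not reported here.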

Additional observations from a re-analysis of the deposited data

Results flagged for a closer look

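Of 78 groups of 4 to 6 libraries screened, 5 had a library whose distance from its nearest neighbour was large against the range of the group. Chance gives about 1 in 20. Slc2a2 was at 1139 CPM in vehicle replicate 1 of culture, above the other 4 libraries at 949 to 992 CPM. The same library had the highest share of counts in the beta cell reference genes of its group, 16.994%, and the highest level of each of the 9 genes. G6pc2 was at 4392 CPM in vehicle replicate 1 of 18 weeks, above the other 5 libraries at 2325 to 2777 CPM. In that library 7 of the 9 genes were lowest. Ffar1 was at 251.7 CPM in cadmium replicate 4 of 6 weeks, above the other 3 libraries at 205 to 211 CPM. The acinar markers held 0.011886% of counts in cadmium replicate 5 of culture, the highest share of that group.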

How the results depend on the processing

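In the 3 cadmium comparisons and the 3 differences between them, 0 of 9 genes were called under every alternative run, including each library left out in turn. Vehicle 18 against 6 weeks had 5 genes called, 5 to 7 under the alternatives other than scaling to the 20 beta cell reference genes, which gave 3; leaving out single libraries gave 5 to 6. Vehicle culture against in vivo had 4, with 8 under scaling to the 20 reference genes, 0 with the acinar share as a covariate and 3 to 5 with single libraries left out. Under scaling to the 20 reference genes Abcc8 (0.00072) and Pcx (0.12) changed sign at 18 against 6 weeks, and Slc2a2 (0.13), Abcc8 (0.39), Kcnj11 (0.44) and Pcx (0.44) in culture against in vivo; the shift of the scaling itself, the same for all genes, moves them. Of 1647 alternative values of single genes, 91 more had the other sign where neither value was called (−1.59 to 0.34).

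The replicate block, for numbers that were not shown to pair libraries (correlations of −0.0784 to 0.144 at 6 weeks, where 0 of 4 libraries correlated best with their own number, −0.0867 to 0.273 at 18 weeks with 3 of 5, 0.0754 to 0.292 in culture with 2 of 5, and −0.154 to 0.101 between the vehicle times with 1 of 5), gave 0, 0 and 0 of 9 genes in the cadmium comparisons, 0 in each difference, 6 for vehicle 18 against 6 weeks (Gipr added, −0.27, edgeR adjusted p = 0.0445) and 4 for culture against in vivo. With the block, genes called over all were 223 in place of 1 in culture, 1 in place of 75 at 18 weeks, 1 in place of 4 for culture minus 18 weeks and 716 in place of 382 for 18 minus 6 weeks. In culture all 5 correlations were above 0. The endothelial share was highest in replicate 2 and lowest in replicate 3 with vehicle (0.0073%, 0.0038%) and cadmium (0.0085%, 0.0045%). The acinar share was highest in replicate 4 with vehicle and 5 with cadmium. Culture libraries of the same number may therefore be paired, and the fit without the block may be less sensitive there.

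Counts of all genes called also moved. For cadmium at 18 weeks they were 765 with DESeq2, 140 without the count filter, 2496 with all libraries in the fit, 0 with the acinar share as a covariate, 0 without the 3 shallowest libraries and 0 to 318 with single libraries left out, the removal of vehicle replicate 1, 3, 4, 5 or 6 or of cadmium replicate 3 giving 0, of cadmium replicate 4 giving 2, and of the other 4 libraries 135 to 318. DESeq2 gave 11 genes at 6 weeks, and 1385, 3 and 196 in the 3 differences. With single libraries left out, 18 minus 6 weeks had 0 to 1694 and culture minus 18 weeks 0 to 358. Without the count filter 7 were called in culture and 192 for 18 minus 6 weeks. Vehicle 18 against 6 weeks had 9039 with the acinar share as a covariate, and culture against in vivo 360. Without a filter G6pc2 and Gipr were also called lower at 18 against 6 weeks. The 9 genes had at least 742 counts per library; precision also depends on the number of libraries, 4 to 6 in a group.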
